A study of Mus musculus with 4 samples.

Results

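The neighbouring genes Cd28, Ctla4 and Icos were examined in open chromatin of mouse T-helper 17 (Th17) primary cells, a class of CD4 T cell known for secreting interleukin 17. The window ran from base 60616800 to base 61100320 of chromosome 1 (mm10), which is the span of the 3 annotated gene bodies plus 100 kb at both ends. Every deposited open region overlapping it was taken: 64, 68, 67 and 68 regions in replicates 1 to 4, of 83904 to 85293 regions per replicate in all. Regions that overlapped by at least 1 bp between lists were joined into a union of 71 regions in the window, of 101015 in the genome. A union region with a peak from each of the 4 replicates is called shared, and 57 of the 71 were. The edges of the window came from the annotation, and the 3 genes were chosen with earlier results of these data known.

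The 4 samples form a single group of Th17 cells from strain C57BL/6NJ, with no treatment, genotype or other cell type to compare them with. The labels call them biological replicates, give all of them the same donor identifier, and list age as unknown and sex as not collected. The labels give the assay as ATAC-seq, in which a transposase cuts and tags accessible DNA. Peak names also carry 72hrs and ASTARR.insert in all 4 lists, which the labels do not explain, so what these say of the time point or the material is not known. Each peak carries a deposited signal, the column that the narrowPeak format keeps for enrichment, and a deposited -log10 q, the strength of evidence for the peak. The sources used here do not say how the signal was computed or whether it was normalised between replicates, so a region was ranked within each replicate among all 68696 shared regions, and the 4 percentiles were averaged. Read counts are not part of the lists, so the depth behind each value is unknown and signal has no counting interval. A two-sided sign-flip test over 4 replicates cannot pass a threshold of 0.05, so differences are given as values with their spread and no p.

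CD28, CTLA-4 and ICOS are related receptors of the immunoglobulin superfamily that tune the activation of T cells. CD28 is carried by resting T cells and, on binding CD80 or CD86 of an antigen-presenting cell, gives the costimulatory signal that accompanies the T-cell receptor. CTLA-4 binds the same ligands more tightly, is induced by activation and acts as an inhibitor, while ICOS, also induced by activation, binds ICOS ligand and supports helper T-cell responses. All 3 genes lie on the plus strand in this order, and their protein-coding transcripts start at 60746358 (Cd28), 60909025 (Ctla4, with a further start at 60909171) and 60977927 (Icos).

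The sequences shown first are the 200 bases before each protein-coding start, because an open region lay over each start in every replicate. They are from the GRCm38 plus strand at chr1:60746158-60746357 (Cd28), chr1:60908825-60909024 (Ctla4) and chr1:60977727-60977926 (Icos). Capitals mark matches, on either strand, to any of 11 short transcription factor strings spelled out further on.
Cd28: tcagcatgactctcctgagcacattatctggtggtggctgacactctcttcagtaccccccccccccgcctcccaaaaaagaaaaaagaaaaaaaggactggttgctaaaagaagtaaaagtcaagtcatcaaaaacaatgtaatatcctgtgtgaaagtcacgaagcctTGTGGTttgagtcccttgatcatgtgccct
Ctla4: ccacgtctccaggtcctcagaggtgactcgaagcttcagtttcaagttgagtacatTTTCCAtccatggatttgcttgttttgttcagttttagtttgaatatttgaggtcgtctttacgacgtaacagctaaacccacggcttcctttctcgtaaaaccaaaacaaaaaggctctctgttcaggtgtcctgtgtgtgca
Icos: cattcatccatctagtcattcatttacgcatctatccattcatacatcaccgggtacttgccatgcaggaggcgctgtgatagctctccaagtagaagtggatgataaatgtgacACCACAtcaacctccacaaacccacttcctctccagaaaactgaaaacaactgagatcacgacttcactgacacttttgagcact
The stretches before Cd28 and Icos each held a RUNX string, and that before Ctla4 an NFAT string. A match is only a run of letters and was not tested as a binding site. The CpG content was low in all 3: the ratio of observed to expected CpG around the start was 0.207 for Cd28, 0.262 for Ctla4 and 0.310 for Icos.

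The next sequences are the mean summit with 100 bases on each side, for 4 regions away from the starts. Regions are named by the nearest of the 3 protein-coding starts and the distance of the summit from it, with a minus sign for upstream. Cd28 -68.8 kb (chr1:60677464-60677664), Ctla4 +21.6 kb (chr1:60930535-60930735) and Icos -16.7 kb (chr1:60961130-60961330) had the highest signal percentile near each gene. Icos +76.7 kb (chr1:61054563-61054763) had the highest -log10 q near Icos and was added after its values were seen.
Cd28 -68.8 kb: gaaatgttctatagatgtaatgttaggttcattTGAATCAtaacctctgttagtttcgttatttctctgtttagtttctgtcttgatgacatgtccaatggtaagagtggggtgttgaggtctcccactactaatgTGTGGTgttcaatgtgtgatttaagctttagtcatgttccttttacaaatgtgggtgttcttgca
Ctla4 +21.6 kb: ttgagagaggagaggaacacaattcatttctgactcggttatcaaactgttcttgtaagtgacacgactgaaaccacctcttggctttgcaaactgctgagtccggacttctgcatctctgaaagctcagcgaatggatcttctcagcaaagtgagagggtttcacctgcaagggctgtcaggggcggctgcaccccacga
Icos -16.7 kb: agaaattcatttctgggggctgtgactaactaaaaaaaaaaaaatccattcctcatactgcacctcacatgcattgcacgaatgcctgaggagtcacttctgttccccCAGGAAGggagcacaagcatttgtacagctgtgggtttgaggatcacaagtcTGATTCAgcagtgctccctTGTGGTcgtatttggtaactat
Icos +76.7 kb: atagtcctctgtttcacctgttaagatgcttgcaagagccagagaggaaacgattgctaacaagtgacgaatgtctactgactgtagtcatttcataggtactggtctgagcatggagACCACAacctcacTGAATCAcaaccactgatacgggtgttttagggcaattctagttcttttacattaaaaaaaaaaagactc
The window around Cd28 -68.8 kb held an AP-1 and a RUNX string, and 85.1% of its bases were marked as repeats in the reference. That around Ctla4 +21.6 kb held none of the 11 strings and no repeat bases. Icos +76.7 kb carried a RUNX and an AP-1 string near the summit, and Icos -16.7 kb an ETS string near the summit with AP-1 and RUNX strings farther off.

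The locus was dense in open regions. Each replicate had 13.8 ± 0.391 open regions per 100 kb of the window (SD, n = 4) against 3.10 ± 0.026 over chromosomes 1 to 19, X and Y. The ratio of these counts was 4.45 ± 0.111 and lay between 4.30 and 4.56 in the 4 replicates. Open regions covered 10.6% ± 0.677 of the window's bases, between 9.82% and 11.1% by replicate, and 2.37% ± 0.077 of the full chromosome lengths. Counting shared regions alone gave 11.8 per 100 kb in the window and 2.52 in the genome, a ratio of 4.68. When the genome was divided into 5627 stretches of the window's length, 19 of them (0.338%) held 57 shared regions or more, the median stretch held 6 and the fullest 68.

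**Figure D1:**
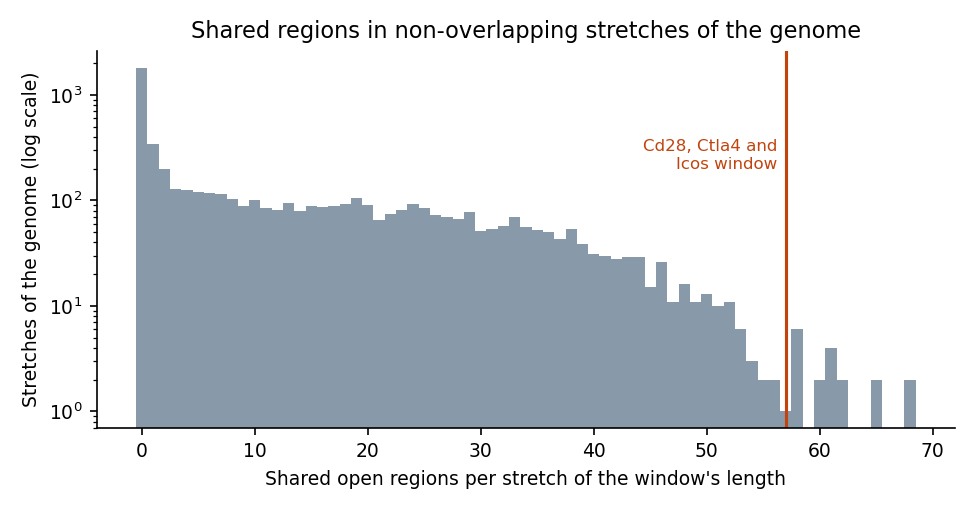
Number of shared open regions (x axis) in each of 5627 non-overlapping stretches of the genome with the window's length, as a histogram with the number of stretches on a log axis (y axis). The line marks the 57 shared regions of the Cd28, Ctla4 and Icos window, and 19 stretches hold that many or more.

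Replicates found mostly the same regions here. Of the 71 union regions in the window, 80.3% were shared (95% Wilson interval 69.6% to 87.9%, counting error over regions only), beside 68% of all union regions in the genome. Summits in the window lay within a median of 22 bp of each other across the 4 replicates, beside 43 bp for all shared regions. At 4 regions (7.02%, beside 5.24% of all shared regions) the 4 summits fell on the same base: Cd28 -68.8 kb and Ctla4 -33.5 kb, -9.6 kb and +4.5 kb. Summits were more than 100 bp apart in 9 regions (15.8%, beside 20.1%). The coefficient of variation of signal across replicates had a median of 8.54% in the window and 8.31% over all shared regions.

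The regions were many, but they were not strong by signal. The median signal of a region in the window was 5.80 ± 0.165, and that of all regions in the same lists 6.14 ± 0.207. By contrast the median -log10 q was 49.3 ± 4.60 in the window and 31.7 ± 0.194 over all regions. On the within-replicate scale the median percentile of the 57 shared regions was 42.6 by signal and 54.6 by -log10 q. Only 2 regions, Cd28 -68.8 kb and Ctla4 +21.6 kb, were at the 90th signal percentile or above. By -log10 q there were 5: these same regions, Ctla4 -9.6 kb, Ctla4 -33.5 kb and Icos +76.7 kb. The 57 regions had a median width of 913 bp, beside 888 bp for all shared regions, and a median GC content at the summit of 45.5%, beside 49.5%. Promoter regions were 3 of the 57 but 12701 of all 68696, and none of these medians was matched for that.

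The difference between the rankings was widest around Ctla4. In 24 of the 57 regions the percentile by -log10 q was more than 20 points above that by signal, as it was in 12.4% of all shared regions. In 2 regions, Cd28 +47.6 kb and Ctla4 -63.2 kb, it was more than 20 points below, as in 4.16% of all. The median of the difference was 14.8 points in the window and -4.02 points over all shared regions. By nearest gene it was 1.28 points for the 21 regions of Cd28, 24.01 for the 18 of Ctla4 and 12.9 for the 18 of Icos. The widest difference was at Ctla4 +4.5 kb, a region in an intron of Ctla4, which stood at the 13.6 percentile by signal and the 72.4 percentile by -log10 q. Next came Icos +72.6 kb, with 28.5 by signal and 81.3 by -log10 q.

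**Figure D2:**
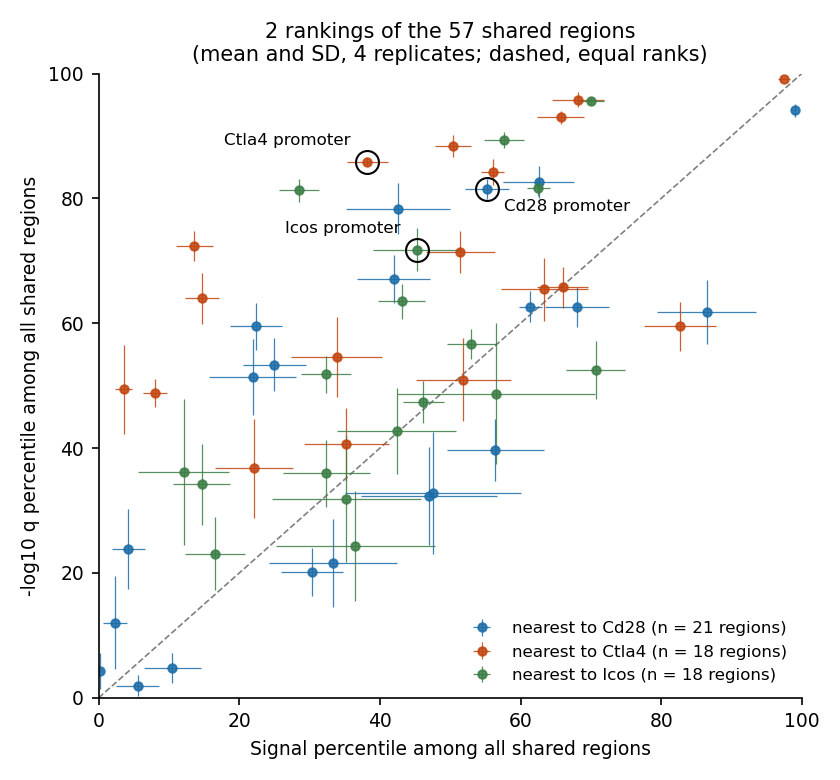
Percentile of each of the 57 shared regions among all shared regions by signal (x axis) and by -log10 q (y axis), as the mean and SD of 4 replicates, coloured by the nearest of Cd28, Ctla4 and Icos, with the 3 promoter regions circled. Points above the dashed line rank higher by -log10 q, and 24 regions do so by more than 20 points.

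All 3 genes had an open promoter in 4 of 4 replicates, defined as a peak of each replicate's own within 1 kb of a protein-coding transcript start. Over 21851 protein-coding genes 62.2% met this rule, and among the 4370 genes in the same class of promoter CpG content (the second lowest of 5 equal classes), 32.7% did. The promoter of Cd28, whose product is the costimulatory receptor of resting T cells, lay at 60745811 to 60747001 with a mean summit 29 bp after the start. Its signal was 8.56, 7.93, 7.71 and 7.63 in replicates 1 to 4, with a mean of 7.95 ± 0.42 (SD, n = 4). The promoter of Ctla4, the inhibitory receptor, lay at 60908618 to 60909406 and had signals of 6.44, 6.43, 5.63 and 5.77, with a mean of 6.07 ± 0.43. That of Icos, the inducible costimulator, lay at 60977304 to 60978406 and had signals of 6.93, 7.84, 5.72 and 6.81, with a mean of 6.83 ± 0.87. Every replicate gave the order Cd28, Icos, Ctla4, and the Cd28 and Ctla4 values did not overlap, whereas those of Icos overlapped both.

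The order of the 3 promoters changed with the measure. The -log10 q of the Ctla4 promoter was 208, 210, 206 and 194 in replicates 1 to 4, that of Cd28 173, 150, 181 and 163, and that of Icos 105, 128, 93.7 and 108. Here Ctla4 was highest and Icos lowest in every replicate, and no values overlapped between genes. As percentiles among all shared regions, Cd28 stood at 55.3 ± 3.17 by signal and 81.6 ± 1.60 by -log10 q, Ctla4 at 38.2 ± 2.92 and 85.9 ± 0.76, and Icos at 45.3 ± 6.32 and 71.8 ± 3.45. By signal percentile Cd28 was above Ctla4 by 17.0 ± 2.72 points, above Icos by 9.94 ± 7.78 points and Icos above Ctla4 by 7.10 ± 5.38 points, each difference positive in 4 of 4 replicates. By -log10 q percentile Cd28 minus Ctla4 was -4.30 ± 1.89 points.

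The 3 promoters were also ranked among the 12701 promoter regions alone. Their signal percentiles there were 32.0 ± 2.81 for Cd28, 19.3 ± 2.33 for Ctla4 and 24.1 ± 5.04 for Icos. By -log10 q the same percentiles were 52.7 ± 2.47, 61.2 ± 2.93 and 38.2 ± 5.33. By signal all 3 lay below the median promoter region.

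**Figure D3:**
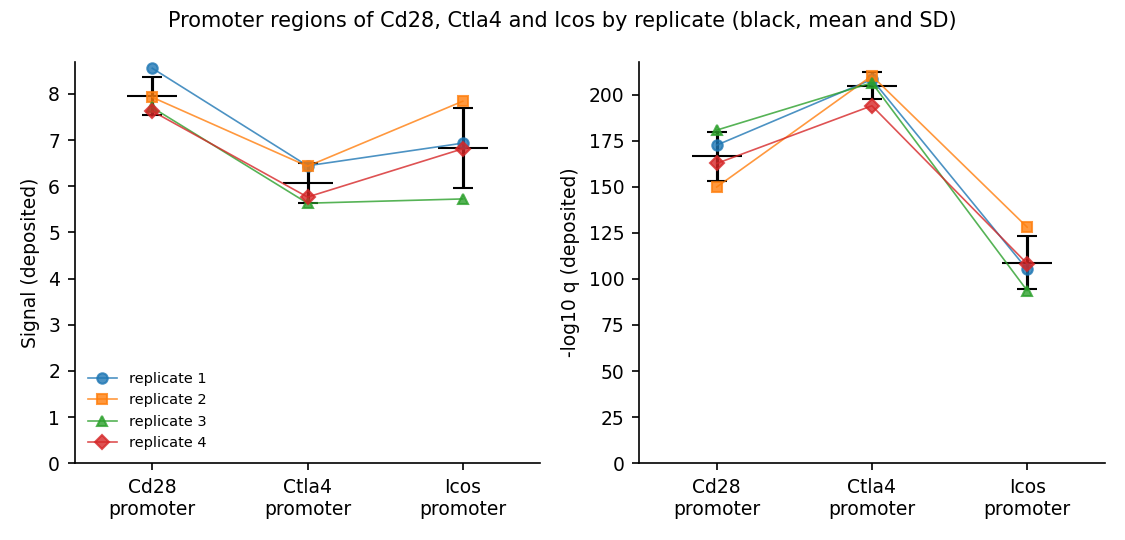
Deposited signal (left, y axis) and -log10 q (right, y axis) of the promoter region of each gene (x axis) in each of the 4 replicates, joined by lines, with the mean and SD in black. Cd28 is highest by signal in all 4 replicates and Ctla4 highest by -log10 q in all 4.

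Other annotated starts of these genes differed. A non-coding transcript of Cd28 starting at 60716800 had no shared region within 1 kb. A non-coding transcript of Ctla4 starting at 60887000 had one, the region Ctla4 -21.8 kb, with a signal of 5.77 ± 0.49. Counted over each gene with 10 kb on either side, Cd28 had 11 shared regions, Ctla4 7 and Icos 5, and the median protein-coding gene had 2. For Icos the count was 9 without replicate 1. As many or more were found in 4.07%, 11.3% and 22.9% of protein-coding genes. Per 10 kb of that span the values were 1.44, 1.43 and 1.18, beside a median of 0.533 over genes.

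Of the 57 shared regions 3 were at promoters, 5 in Cd28 introns, 1 over a Cd28 exon, 1 in a Ctla4 intron and 2 in Icos introns. The remaining 45 lay between or outside the protein-coding transcripts. For density per segment a region was placed by its summit, and each transcript began at its start. The Cd28 promoter, with its mean summit at 29 bp, thus counted in the transcript. Those of Ctla4 and Icos, at -14 and -74 bp, counted in the stretches before them, so the transcripts were not treated alike. By this rule the Cd28 transcript was the densest segment, with 2.96 ± 0.30 open regions per 10 kb and replicate counts of 7, 9, 8 and 8. The stretch between Ctla4 and Icos followed with 2.17 ± 0.21, and the stretch between Cd28 and Ctla4 had 1.47 ± 0.10. The Icos transcript had 1.56 ± 0.26 and the short Ctla4 transcript 1.84 ± 0.73, where a single peak more in replicate 2 made the spread. The flanks were thinner, with 0.675 ± 0.039 upstream of Cd28 and 1.18 ± 0.05 downstream of Icos. By shared regions alone the stretch downstream of Icos, with 1.1 per 10 kb, was above the Icos transcript counted without its promoter region, with 0.893. Stretches of 36.1 kb (60677919 to 60714018, upstream of Cd28) and 37.7 kb (61062632 to the window's 3' end) held no open region in any replicate.

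**Figure D4:**
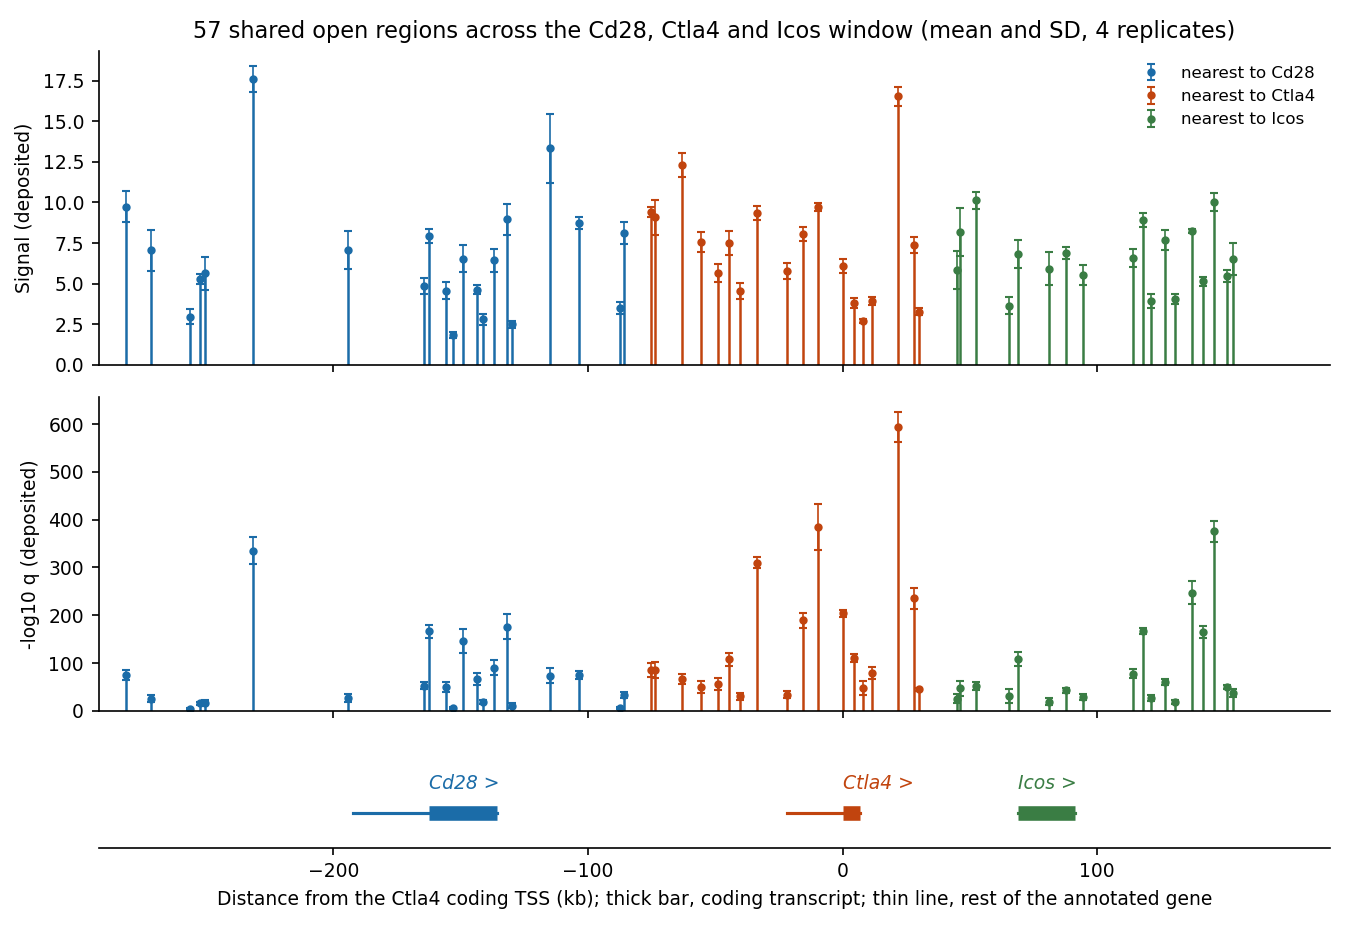
Deposited signal (top, y axis) and -log10 q (middle, y axis) of the 57 shared regions along the window, as mean and SD of 4 replicates, with distance from the protein-coding start of Ctla4 in kb (x axis) and the 3 genes drawn below. The tallest regions by signal are Cd28 -68.8 kb and Ctla4 +21.6 kb, and by -log10 q Ctla4 +21.6 kb.

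Near Cd28, the strongest region by signal in the whole window was Cd28 -68.8 kb (60677158 to 60677918). Its signal was 18.2, 18.3, 16.6 and 17.3 in replicates 1 to 4, at the 99.0 ± 0.22 percentile, and its mean -log10 q of 335 was at the 94.1 ± 0.97 percentile. No replicate ranked it low, and the 4 summits were on the same base. The repeat share of 85.1% given with its sequence compares with 4.24% of all shared regions having more than 50% repeat bases at the summit. Only Cd28 -1.9 kb (84.6%) and Ctla4 -73.9 kb (63.2%) in the window were also above 50%. How reads were placed in repeats was not given in the sources used here, and its part in these values was not tested.

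Cd28 +47.6 kb (60793656 to 60794162) was next near Cd28, with signals of 12.5, 16.3, 11.2 and 13.3. These spread more than those of the strongest region, and replicate 2 was the highest. It lay at the 86.5 ± 7.05 percentile by signal and the 61.8 ± 5.12 percentile by -log10 q, overlapped the processed pseudogene Gm11609, and held a RUNX and an ETS string. Cd28 -118.7 kb (60627359 to 60628271) followed with a signal of 9.75 ± 0.96 at the 68.1 ± 4.52 percentile. Within the transcript, intron regions ran from Cd28 +9.5 kb, with the lowest signal of the window at 1.83 ± 0.18 (0.25 percentile), to Cd28 +13.5 kb at 6.54 ± 0.82 (42.6 percentile). The exon region Cd28 +25.6 kb had a signal of 6.44 ± 0.70.

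Near Ctla4, the leading region was Ctla4 +21.6 kb (60930194 to 60931296), between Ctla4 and Icos. Its signal was 17.2, 16.7, 16.3 and 15.8 and its -log10 q 604, 587, 630 and 554 in replicates 1 to 4. Both measures put it near the top in every replicate, with percentiles of 97.5 ± 0.89 and 99.2 ± 0.11. Summits in the 4 replicates lay within 1 bp. Ctla4 -63.2 kb (60845750 to 60846241) followed by signal with 12.3 ± 0.75 at the 82.6 ± 5.13 percentile, but with a mean -log10 q of 67.2 at the 59.5 percentile. Ctla4 -9.6 kb (60898326 to 60899805) had a signal of 9.73 ± 0.25 at the 68.2 ± 3.63 percentile and a mean -log10 q of 385 at the 95.8 ± 1.17 percentile.

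Regions around Ctla4 ranked higher by -log10 q than by signal. From Ctla4 -33.5 kb to Ctla4 +30.1 kb there were 11 shared regions, and 9 of them ranked more than 20 points higher by -log10 q than by signal. The exceptions were Ctla4 -21.8 kb, with a difference of 5.42 points, and Ctla4 +21.6 kb, which was near the top by both. The 18 regions nearest to Ctla4 had a median percentile of 50.9 by signal and 65.6 by -log10 q. Those of Cd28 had 41.9 and 51.4, and those of Icos 42.7 and 50.3. In each replicate the signal median was highest for Ctla4, with 47.5 to 50.3, while Cd28 had 38.0 to 43.3 and Icos 39.9 to 45.2.

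Near Icos no region reached the 90th percentile by signal. Icos -16.7 kb (60960410 to 60961700) led with 10.1 ± 0.53 at the 70.7 ± 4.22 percentile and a mean -log10 q of 51.8 at the 52.5 percentile. Icos +76.7 kb (61054164 to 61055363), downstream of the gene, was level with it by signal at 10.04 ± 0.55 and the 70.0 ± 1.82 percentile. By -log10 q it was far above, with a mean of 376 at the 95.6 ± 0.52 percentile. Icos +49.0 kb (61026536 to 61027538) had a signal of 8.92 ± 0.44 at the 62.5 ± 1.60 percentile.

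Regions missing from a replicate were few and mostly weak. Of the 14 union regions that were not shared, 9 were in 3 replicates and 5 in 1. Replicate 1 lacked 6 of the 9, replicate 2 lacked 2 and replicate 4 lacked 1. The strongest by signal, 60983073 to 60983340 in Icos (+5.2 kb), had 5.03, 5.25 and 4.96 in replicates 2, 3 and 4 and no peak in replicate 1. The one with the highest -log10 q, 60940956 to 60941621 at Ctla4 +32.2 kb, had 45.4, 43.0 and 35.2 in the same replicates and none in replicate 1.

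At the ends of the window the nearest shared regions outside were 60613152 to 60613873, with a signal of 9.49 ± 0.73, and 61135486 to 61136490, with 5.43 ± 0.12. The outermost ones inside were Cd28 -118.7 kb, with 9.75 ± 0.96, and Icos +84.4 kb, with 6.53 ± 1.00.

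The window holds 12 further annotated genes, none of them protein-coding. The 7 processed pseudogenes are Gm11577, Eif4a-ps4, Gm11609, Gm11581, Rpl18-ps1, Gm11582 and Rpl17-ps1, and none had a shared region within 1 kb of its start. Of the long non-coding RNAs, 2310016D23Rik, which starts just downstream of Cd28, had 2, Cd28 +30.7 kb (signal 8.96 ± 0.97) and Cd28 +32.8 kb (2.48 ± 0.24), and Gm11579 had none. Only the edge of Cd28 +30.7 kb came within 1 kb of that start at 60778843, as its summit was at 60777089. Among 3 unclassified transcripts, Gm37198 shared Cd28 +32.8 kb, Gm37039 in Icos had Icos +12.3 kb (5.93 ± 1.02), and Gm38137 had none.

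Strings for transcription factors active in T cells were searched on both strands within 50 bp of each mean summit. RUNX (TGTGGT) was found at 12 of 57 regions, or 21.1%, beside 12.6% of all shared regions. NFAT (TGGAAA), the string of the calcium-activated factors downstream of the T-cell receptor, was found at 10 regions, or 17.5%, beside 9.8%. AP-1 (TGANTCA) was found at 7, or 12.3%, beside 21.2%, and ETS (CNGGAAG) at 3, or 5.26%, beside 12%. With so few regions these shares are descriptions. The differences moved with the span searched. Within 25 bp the shares were close for RUNX (7.02% beside 6.44%), NFAT (5.26% beside 4.59%) and ETS (5.26% beside 5.74%), and AP-1 was at 7.02% beside 11.5%. Within 100 bp AP-1 was close (26.3% beside 29.2%), and the values were 31.6% beside 21.4% for RUNX, 22.8% beside 18.7% for NFAT and 12.3% beside 21.7% for ETS. Without promoter regions, which were rarer in the window, the shares within 50 bp were closer for RUNX (18.5% beside 14.4%). They were 18.5% beside 11.1% for NFAT, 13.0% beside 25.2% for AP-1 and 5.56% beside 10.9% for ETS.

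The other strings were rare. ROR (AGGTCA), for the family of the Th17 factor RORgt, was at 2 regions, both near Icos (3.51% beside 6.24%). TCF/LEF (CTTTGAA) was at 2 (3.51% beside 2.4%), and NF-kB (GGGNNTTCC) and STAT (TTCNNGGAA or TTCCNNGAA) at 1 each (1.75% beside 2.59% and 1.69%). FOX (TGTTTAC), T-box (AGGTGTGA) and the CTCF consensus were at none, beside 0.865%, 0.453% and 3.15% of all shared regions. No match means only that these letters were not in the bases searched. In 9 regions the 4 summits were more than 100 bp apart, so the 50 bp on each side of their mean could not hold all 4. The ETS, NFAT and STAT strings share letters and were counted separately. None of the strings was present at 28 of the 57 regions (49.1%, beside 45.2% of all), among them Ctla4 +21.6 kb, Ctla4 -9.6 kb and Ctla4 -33.5 kb. By nearest gene, RUNX strings were at 5 regions of Cd28, 2 of Ctla4 and 5 of Icos, and NFAT strings at 5, 2 and 3.

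**Figure D5:**
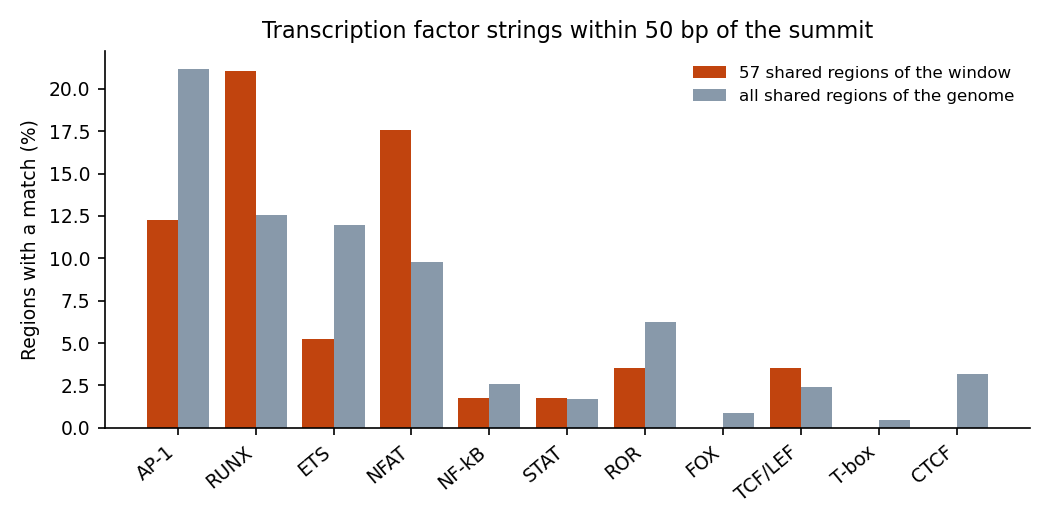
Share of regions (y axis, %) with a match to each string (x axis) within 50 bp of the summit, in the 57 shared regions of the window and in all shared regions of the genome. RUNX and NFAT bars are higher in the window (21.1% and 17.5%) and the AP-1 and ETS bars lower (12.3% and 5.26%).

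The promoters of genes that act with the 3 receptors were open almost throughout, at 41 of 42 listed genes (97.6%) against the 62.2% of all protein-coding genes. The lists were not matched for promoter CpG content. Their genes ran from the lowest of the 5 classes, as Cd226, to the highest, as Grb2. In the 2 highest classes 93.4% and 96.4% of all genes were open, so a high share is usual there. Of the ligands and related receptors 11 of 12 were open. Cd80 and Cd86, which encode the ligands of CD28 and CTLA-4, had 7 and 9 shared regions counted in the same way, Icosl, the ICOS ligand, had 4, and Pdcd1, the inhibitory receptor PD-1, had 7. The exception was Vtcn1, which encodes the inhibitory ligand B7-H4 and had a promoter peak in 0 of 4 replicates. All 20 genes listed for CD28 and ICOS signalling were open, among them Lck and Fyn, the Src-family kinases of the receptor complex, with 10 and 23 regions, and Prkcq, the protein kinase of the CD28 synapse, with 17. That list holds Pdk1, which encodes pyruvate dehydrogenase kinase 1 and is not the kinase upstream of AKT. All 10 genes of CTLA-4 trafficking were open, including Lrba, which protects CTLA-4 from degradation and had 36 regions, and Trat1 with 5. The median gene of the 3 lists had 6.5, 10.5 and 5 regions, beside 2 over all genes, with no adjustment for gene length.

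The labelled cell type was checked on marker promoters, beside the 62.2% of all protein-coding genes that were open by the same rule. That share ran from 11.4% to 96.4% across the 5 classes of promoter CpG content, for which the marker lists were not matched. With lists of 5 to 13 genes the counts are descriptions. Open in all 4 replicates were 12 of 13 Th17 markers (not Il22), 7 of 7 matched T-cell markers (Trac was not matched by symbol) and 4 of 5 regulatory T markers, where Ctla4 is itself a member and Foxp3 had a promoter peak in 1 replicate. Of the markers of other lineages 0 of 5 B-cell, 1 of 5 myeloid (Cd14) and 2 of 5 CD8 or NK genes (Cd8b1 and Gzmb) were open. Among those not open, the B-cell genes Cd79b and Pax5 had a promoter peak in 2 and 1 replicates, and Klrb1c of the CD8 or NK list in 2.

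A library tag in the peak names, which the labels do not explain, is KS134 for replicates 1 and 2 and KS136 for the others. In 31 of the 57 regions (54.4%) the signal percentiles of the 2 tags did not overlap, beside 42.5% of all shared regions. Of these, 16 were higher in KS134 and 15 in KS136. With 2 against 2 an exact permutation p cannot go below 0.333. The widest differences were at Icos +12.3 kb, with mean percentiles of 27.6 in KS134 and 45.5 in KS136, and at Cd28 -31.7 kb, with 38.7 and 56.5. In the other direction Cd28 -109.1 kb had 55.3 and 38.7. The Ctla4 and Icos promoters were higher in KS134 by 4.83 and 7.69 points.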

How the data were processed

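ATAC-seq peak lists of 4 replicates of Th17 cells were analysed, on mm10 per the labels. Aligner and peak caller: not given in the sources used here. A line in a deposited file gives a region, a summit offset in bp, the signal made by the authors' peak caller, and deposited -log10 p and -log10 q values per peak. The deposited score, a display value, was not used. No list holds counts, so depth is unknown and precision is the spread between replicates.

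Lists were limited to chromosomes 1 to 19, X and Y and joined with Python 3.11.15, NumPy 2.4.6 and pandas 2.3.3. SciPy 1.17.1 gave the Wilson interval and matplotlib 3.10.9 the figures. Starts are those of protein-coding transcripts of the GENCODE M21 basic set. The replicate's strongest peak in a union region gave its signal, -log10 q and summit. Sequence came from the RefSeq copy of GRCm38.p6, where lower-case bases marked repeats. The joining and ranking steps were tested on simulated lists. Regions described in full were the promoter of each member and the 3 regions of highest signal percentile nearest to it, and in lists every gene that was not open with up to 4 that were. The members and lists were chosen with earlier results of these data known, so no list is independent evidence. The alternatives were a minimum -log10 q of 10, the strongest 50000 regions, other promoter, flank, overlap and string windows, another ranking measure or reference set, and leaving out each replicate.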

Additional observations from a re-analysis of the deposited data

How the results depend on the processing

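The locus kept more shared regions than the genome under every alternative run, with a density ratio between 4.30 (strongest 50000 regions of each replicate) and 5.27 (minimum -log10 q of 10), and all 3 promoters stayed open in every alternative. With the strongest 50000 regions the window held 38.25 ± 0.5 regions per replicate, 33 shared regions and 6.90% of bases covered. Covered bases were 9.74% with a minimum -log10 q of 10 and 12.0% with flanks of 50 kb. The shared share of the window's union regions was 67.6% when summits had to lie within 100 bp and 93.0% when 3 replicates sufficed. It ran from 80.6% to 91.3% when each replicate was left out, the highest without replicate 1. The genome's share was not worked out under these settings, so these values are not comparable with its share given earlier. The density ratio, which uses the same rule on both sides, was 4.93 with summits within 100 bp and 4.82 when 3 replicates sufficed. For the 12 regions described in full, the median percentile of 68.9 became 81.6 by -log10 q and 73.9 against promoter or distal regions only, and ran from 69.2 to 70.6 when each replicate was left out. Cd28 minus Ctla4 at the promoter, 17.0 points by signal, was -4.30 by -log10 q and 12.7 among promoter regions, and Icos minus Ctla4 went from 7.10 to -14.1 by -log10 q. Shared regions per gene counted by nearest start were 17 for Cd28, 18 for Ctla4 and 28 for Icos, the last including regions beyond the window. Listed genes with an open promoter numbered 34 of 42 with the strongest 50000 regions, beside 53.2% of all protein-coding genes, and 37 when the summit had to lie within 1 kb, beside 59.2%. Leaving out regions over 50% repeat-masked, chosen after seeing the data, left 54 shared regions and a ratio of 4.63. With 1 group there were no groups to pair, and differences between promoters were taken within each replicate. Of 29 quantities checked for a replicate far from the other 3, by a rule that chance meets in about 1 in 20, 0 were.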
